A study of Mus musculus with 12 samples.

Results

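The genes described here are 33 known targets of wild-type p53, chosen by symbol from a list of known targets that was drawn up with earlier results of these data known, out of 22630 genes measured in 12 tumors. Each was read in subcutaneous tumors of KCip53-1, a mouse pancreatic cancer line that carries Ptf1a-Cre, TREp53R270H and R26rtTa/rtTa, in which the drug doxycycline (dox) switches on mutant p53R270H together with a red fluorescent reporter. The line was derived by sorting dsRed-positive cells of a single primary tumor. The study amplified and sequenced Trp53 from KCip53 lines and recovered the mutant sequence only, which limits them as a model of wild-type p53, while host cells keep their own wild-type gene. NSG mice aged 8 to 10 weeks, which lack T, B and NK cells, received 500000 cells per tumor and bore 2 tumors each. The 4 no-dox tumors never had dox. Mice of the 4 plus-dox tumors drank dox for 36 days, at 0.2 g/l in 5% sucrose. For the 4 off-dox tumors dox was given for 33 days and then withheld for 3 days by the sample labels, whereas the study's text ties the withdrawal to tumors becoming palpable. All 12 tumors thus shared the line and the host strain, and the question was how p53 target genes stood without dox, with it, and after its withdrawal.

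p53 is a transcription factor that responds to DNA damage and oncogene activity by switching on genes for cell cycle arrest, DNA repair, cell death and metabolic control. It binds DNA as a tetramer, at a pair of half-sites that each hold a C, a pair of A or T bases and a G at their core. Mutants in the DNA-binding domain, such as p53R270H, have lost most of this binding and can also disable a wild-type partner in the same tetramer. Most of the target genes are also switched on by other factors, so their transcripts are found in cells without p53 activity.

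Counted reads per tumor ran from 25673348 to 33137609 in no-dox, 20784597 to 30208368 in plus-dox and 19845923 to 25088486 in off-dox tumors. Every off-dox tumor thus had fewer counted reads than every no-dox tumor. The share of mapped reads that fell on genes was 88.4% to 89.4% in no-dox, 82.2% to 87.1% in plus-dox and 81.1% to 85.8% in off-dox tumors, so that it separated the no-dox tumors from the other 8 and no comparison with no-dox could be made at a like share. Plus-dox tumor 2 and off-dox tumor 4 stood apart in the whole profile, with scores of 101.9 and 66.9 on a leading component that held 49.8% of the variance, against −43.5 to 6.23 in the other 10. All 12 epithelial markers of the list used here were detected, and their summed level was 2364 to 3278 RPKM in no-dox, 1368 to 2136 in plus-dox and 1115 to 2785 in off-dox tumors. Summed markers of T and NK cells, at 0.787 to 1.49 RPKM in no-dox and 1.84 to 4.02 in the other tumors, were also separated. These markers were near the floor, with Cd3e at most at 0.149 and Cd8a at most at 0.195 RPKM. Nkg7 did not overlap between no-dox and the other tumors, while Cd3e, Cd3g, Cd8a, Ncr1 and Klrb1c did. Summed markers of skeletal muscle ran from 9.08 to 1227 RPKM. RPKM is the read count scaled to the exonic length of a gene and to the mapped reads of a tumor. Whole, unsorted tumors were sequenced, so that fewer cells of a type and less RNA per cell cannot be told apart.

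Sequence resembling the p53 consensus lay near 9 of the 33 genes. The search covered both strands within 3000 bases of each gene start in mm9 for paired half-sites of 10 bases with no spacer, with the C and G of each core kept and at most 2 mismatches to the consensus. Over all 22630 genes 1374 held such a match, 6.07% against 27.3% of the p53 targets. A stricter pattern, with whole cores and at most 1 mismatch, was found at Cdkn1a and Ccng1 alone among the targets and at 0.791% of all genes. The looser pattern was set after the stricter one had given these 2 target genes. As the list was of known p53 targets, the shares are a description and not a test. A match describes the letters only, and a gene without one may be bound elsewhere. The sequences below are shown because Cdkn1a and Ccng1 carry the closest matches, because Perp is among the genes whose levels differed most between groups, and because Fas is a classical death receptor target. They are read on the strand of the gene, with the matching 20 bases in capitals.
Cdkn1a, upstream of the start, chr17:29227868-29227897, plus strand: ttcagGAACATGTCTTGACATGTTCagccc
Ccng1, intron, chr11:40568433-40568462, minus strand: ccggaACGCAAGCCCGGGCTAGTCTgcgcc
Ccng1, upstream, chr11:40568959-40568988, minus strand: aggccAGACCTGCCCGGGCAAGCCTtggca
Perp, upstream, chr10:18562835-18562864, plus strand: ctcacATTCTAGCCCAGGCTTGCCCagaat
Perp, intron, chr10:18567818-18567847, plus strand: atcctGGGCAAGCTCTGGCATGTCAgggtg
Fas, intron, chr19:34366849-34366878, plus strand: tggcaGGGCATGTACAAACATGTCAtcttg
Matches with 2 mismatches were also present at Plk2, Bax, Eda2r and Trp53i13, and a further match at Pmaip1. The other 24 genes, among them Zmat3, Plk3, Phlda3 and Sfn, held none in this window.

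All 33 genes were expressed and passed the count filter. Their mean over the 12 tumors ran from 1.79 RPKM for Gls2 to 63.7 for Bax, and the lowest count of any gene in a single tumor was 73 reads, for Gls2 in plus-dox tumor 2. A gene was called with edgeR's quasi-likelihood test over 17561 genes where its adjusted p was under 0.1, its fold change over 1.5 and its mean over 0.25 RPKM. By these limits 0 of the 33 differed between plus-dox and no-dox tumors (background 0% of all genes), 0 between off-dox and no-dox (background 1.34%) and 0 between off-dox and plus-dox (background 0%). At an unadjusted p under 0.05 the counts were 7, 6 and 0 genes, against a background of 13.7%, 20.4% and 3.06%. The first of these counts is a larger share of the 33 than the background and the second a smaller one. Of the 7 genes, Plk3, Zmat3 and Apaf1 had positive and Sfn, Perp, Gadd45a and Gls2 negative fold changes.

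**Figure D1:**
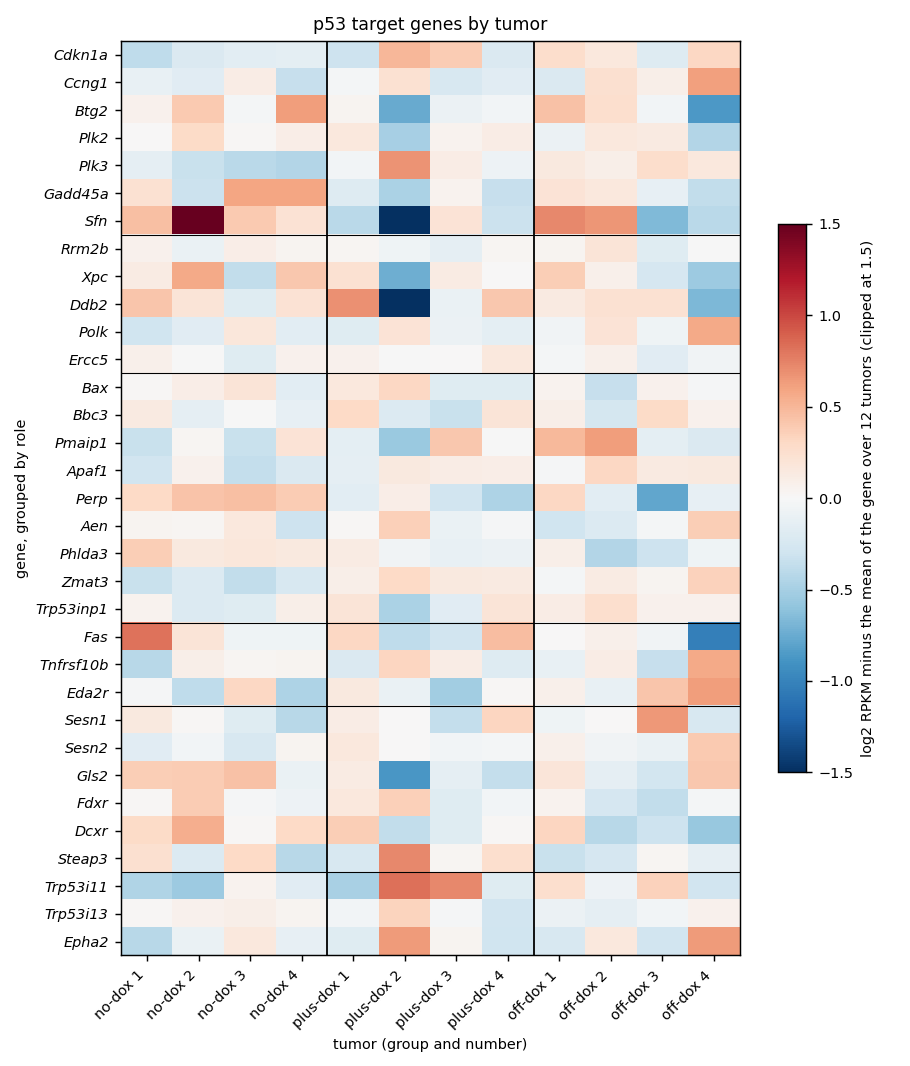
Heat map of the 33 target genes (rows, grouped by role and separated by black lines) in 12 tumors (columns), coloured by log2 RPKM minus the mean of the gene over all tumors. Plus-dox tumor 2 is the column with the strongest blue and red, with Sfn at 1.51 RPKM and Ddb2 at 2.12 RPKM, and the row of Zmat3 passes from blue in the no-dox tumors to white or red in the others.

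Between plus-dox and no-dox tumors 20 of the 33 fold changes were above 0, beside 51.4% of all genes. Their median log2 fold change was 0.019, against 0.013 over all genes tested, and the median size regardless of sign was 0.15 against 0.23. In off-dox against no-dox tumors 17 of 33 were above 0, beside 50.7% of all genes, with a median of 0.017 against 0.0072. Off-dox against plus-dox gave 19 of 33 above 0, beside 49.8%, with a median of 0.041 against −0.00051. The first 2 comparisons share the no-dox tumors, so their values are given side by side and not counted as independent.

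**Figure D2:**
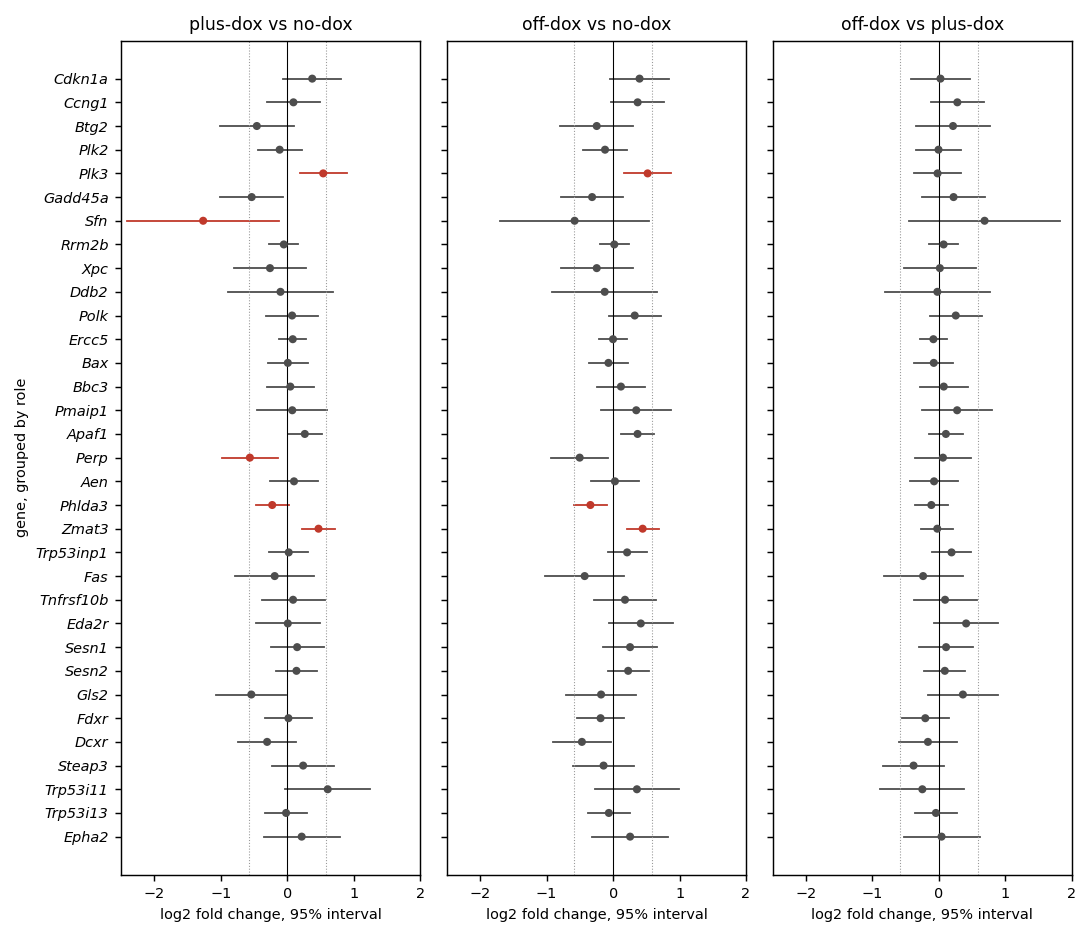
Log2 fold changes (dots) of the 33 target genes with 95% intervals (lines) from edgeR for the 3 pairs of groups, the group named first over the second. Red marks genes whose groups do not overlap in RPKM, dotted lines mark 1.5-fold, and in the right panel all 33 intervals include 0.

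Groups did not overlap in RPKM for 5 genes in plus-dox against no-dox (2 above and 3 below, background 7.77%, of which 4.3% above and 3.46% below), for 3 genes in off-dox against no-dox (2 above and 1 below, background 11.4%, of which 4.99% above and 6.4% below) and for 0 genes in off-dox against plus-dox (background 1.49%, of which 0.552% above and 0.934% below). Plk3 and Zmat3 were the genes above the no-dox tumors, in both plus-dox and off-dox. Perp, Phlda3 and Sfn were those below them in plus-dox, and Phlda3 also in off-dox. An exact permutation test of 4 against 4 tumors has 70 splits, so that its smallest two-sided p is 0.029.

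**Figure D3:**
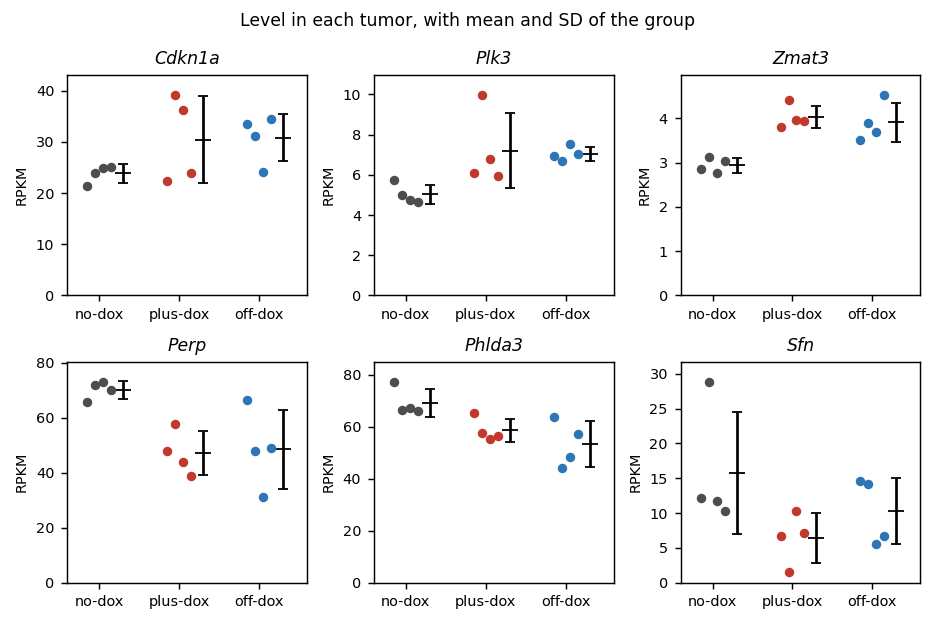
RPKM (vertical axes, from 0) of 6 target genes in each of 4 no-dox (grey), 4 plus-dox (red) and 4 off-dox (blue) tumors, with the mean and SD of the group beside the dots. All plus-dox and off-dox dots of Plk3 and Zmat3 sit above the no-dox dots, those of Phlda3 sit below, and Cdkn1a overlaps between groups.

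Genes of cell cycle and growth control were led by Cdkn1a, which encodes the CDK inhibitor p21 and is the standard readout of p53 activity (chromosome 17, 29227931 to 29237667). Cdkn1a stood at 21.3, 23.9, 24.98 and 25.1 RPKM in no-dox tumors, at 22.4, 39.3, 36.2 and 24.0 in plus-dox and at 33.4, 31.1, 24.2 and 34.4 in off-dox tumors. The no-dox tumors were close together, plus-dox tumors 2 and 3 were high, plus-dox tumors 1 and 4 were within the no-dox range, and 3 of the 4 off-dox tumors were above it. The log2 fold change was 0.37 (standard error, SE, 0.20, 95% interval −0.065 to 0.81, adjusted p = 0.42 by edgeR) for plus-dox against no-dox. It was 0.40 (SE 0.20, adjusted p = 0.28 by edgeR) for off-dox against no-dox and 0.025 (95% interval −0.41 to 0.46) for off-dox against plus-dox. The groups overlapped in every pair, and without plus-dox tumor 2 and off-dox tumor 4 the first value was 0.22.

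Plk3, a kinase of the stress response (chromosome 4, 116801336 to 116806557), was the gene of this role with the clearest step. It had 5.72, 4.98, 4.75 and 4.63 RPKM in no-dox tumors, 6.11, 9.99, 6.78 and 5.95 in plus-dox and 6.93, 6.67, 7.52 and 7.03 in off-dox tumors. All 8 tumors that had seen dox were above the 4 that had not, by a small margin in plus-dox tumors 1 and 4. Plk3 had a log2 fold change of 0.54 (SE 0.16, adjusted p = 0.32 by edgeR) in plus-dox and 0.52 (SE 0.16, adjusted p = 0.13 by edgeR) in off-dox against no-dox, with an exact permutation p of 0.029 for both. The first of these was 0.33 without plus-dox tumor 2 and off-dox tumor 4. With the epithelial markers as a covariate the values were 0.38 and 0.43, the latter with an edgeR adjusted p of 0.093.

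Sfn encodes 14-3-3 sigma, a G2 checkpoint protein that is made by epithelial cells (chromosome 4, 133156471 to 133158083). Its RPKM was 12.1, 28.8, 11.7 and 10.3 in no-dox tumors, 6.73, 1.51, 10.3 and 7.11 in plus-dox and 14.7, 14.1, 5.61 and 6.71 in off-dox tumors. No-dox tumor 2 was far above and plus-dox tumor 2 far below the rest, a 19.2-fold span that was the widest of the 33 genes. The log2 fold change in plus-dox against no-dox was −1.27 (SE 0.52, adjusted p = 0.34 by edgeR). No-dox and plus-dox tumors were just separated in RPKM but overlapped in log2 CPM, where the exact permutation p was 0.057. The summed level of the epithelial markers was 2364 to 3278 RPKM in no-dox and 1368 to 2136 in plus-dox tumors, with Krt8 and Krt18 its largest terms. Of the 12 markers 10 had negative and 2 positive fold changes in that pair. Cldn3 was at 10.5 and 13.2 RPKM in plus-dox tumors 3 and 4, against 0.428 to 2.29 in no-dox tumors. Without no-dox tumor 2 the log2 fold change of Sfn was −0.82, and DESeq2 with moderated fold changes gave −0.64. With the epithelial markers as a covariate it was −0.82 (SE 0.22, adjusted p = 0.32 by edgeR). In off-dox against no-dox the value was −0.58 (SE 0.52), and −0.15 with the covariate.

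Gadd45a, a damage-induced growth arrest gene, had the highest level of this role. Its values were 63.1, 43.0, 80.9 and 81.5 RPKM without dox, 47.3, 38.7, 55.7 and 42.5 with dox and 62.0, 60.1, 49.3 and 41.9 off dox. No-dox tumors 1, 3 and 4 were above all others, but no-dox tumor 2 was among the lowest. Against no-dox its log2 fold change was −0.54 (SE 0.22, adjusted p = 0.34 by edgeR) in plus-dox and −0.32 (SE 0.22, adjusted p = 0.42 by edgeR) in off-dox tumors.

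Ccng1, the cyclin G1 gene and a long-known p53 target, stood at 49.1, 47.2, 57.5 and 41.9 RPKM in no-dox, 52.1, 62.6, 45.1 and 47.3 in plus-dox and 45.7, 62.8, 56.5 and 81.7 in off-dox tumors. The groups overlapped, and off-dox tumor 4 was the highest. In off-dox against plus-dox the log2 fold change was 0.28 (95% interval −0.12 to 0.68), and 0.091 without off-dox tumor 4. Btg2, an antiproliferative gene, had means of 18.6 ± 3.92, 13.5 ± 3.03 and 15.5 ± 5.29 RPKM in no-dox, plus-dox and off-dox tumors (SD, n = 4 each). Plk2, another stress-response kinase, had 31.1 ± 2.95, 28.5 ± 5.39 and 28.0 ± 5.03. Both overlapped between groups in RPKM, although for Btg2 the exact permutation p on log2 CPM was 0.029 in plus-dox against no-dox, at a log2 fold change of −0.46 (adjusted p = 0.43 by edgeR) that was −0.23 with the epithelial covariate and −0.29 with limma-voom. Of the 7 genes of this role 3 were above 0 and 4 below 0 in plus-dox and again in off-dox against no-dox.

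The DNA repair genes had the smallest fold changes of the 6 roles, with a median size regardless of sign of 0.080 in plus-dox and 0.13 in off-dox against no-dox on the log2 scale. Xpc, which recognises damage in nucleotide excision repair, had 7.74, 10.5, 5.52 and 9.43 RPKM in no-dox, 8.33, 4.27, 7.73 and 7.12 in plus-dox and 9.15, 7.49, 5.96 and 4.86 in off-dox tumors. Polk, a translesion DNA polymerase, had 6.50, 7.07, 8.99 and 7.14 in no-dox, 7.03, 9.24, 7.53 and 7.199 in plus-dox and 7.72, 9.22, 7.61 and 11.9 in off-dox tumors. The groups overlapped for both, with Xpc lowest in plus-dox tumor 2 and Polk highest in off-dox tumor 4. Their log2 fold changes against no-dox were −0.26 and 0.070 in plus-dox and −0.25 and 0.32 in off-dox tumors, with edgeR adjusted p-values of 0.32 or above. The value of Xpc in plus-dox was −0.012 with the epithelial markers as a covariate, −0.093 without plus-dox tumor 2, −0.15 without no-dox tumor 2 and −0.40 without no-dox tumor 3, and that of Polk in off-dox was 0.15 without off-dox tumor 4. Ddb2, the partner of Xpc in damage recognition, spanned 2.12 to 10.1 RPKM and both of these extremes were plus-dox tumors. Rrm2b, the p53-induced ribonucleotide reductase subunit, and Ercc5, the excision repair nuclease XPG, spanned only 5.71 to 7.39 and 4.26 to 5.43 RPKM. For these 2 genes the 95% interval of the log2 fold change in plus-dox against no-dox was −0.27 to 0.16 and −0.12 to 0.28, which leaves out a change of 1.5-fold.

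Among the apoptosis genes Zmat3, which encodes a zinc finger RNA-binding protein, had the smallest unadjusted p of all 33 (chromosome 3, 32233716 to 32260138). It stood at 2.84, 3.12, 2.76 and 3.03 RPKM in no-dox tumors, 3.81, 4.40, 3.96 and 3.94 in plus-dox and 3.51, 3.90, 3.68 and 4.53 in off-dox tumors. The no-dox tumors lay in a narrow band below the other 8. Its fold change on the log2 scale was 0.47 (SE 0.11, 95% interval 0.23 to 0.71, adjusted p = 0.32 by edgeR) in plus-dox against no-dox. In off-dox against no-dox it was 0.44 (SE 0.11, adjusted p = 0.090 by edgeR), which passed the limit on p but not that of 1.5-fold. In the main edgeR fit, Zmat3 was the single target gene with an adjusted p under 0.1 in any pair. In off-dox against no-dox 3.46% of all genes had one. The adjusted p of Zmat3 in that pair was not under 0.1 with no filter on counts, in the 8 tumors alone or with the replicate block. Nor was it when any no-dox tumor, plus-dox tumor 3 or 4, or off-dox tumor 2, 3 or 4 was left out. Other edgeR fits put further target genes under 0.1 in that pair. Plk3 was under it with the epithelial covariate, without plus-dox tumor 2 and without both tumors that stood apart. With at least 10 counts in every tumor Plk3 and Apaf1 were under it. Without off-dox tumor 1 Apaf1, Dcxr, Perp and Phlda3 were. The share of all genes at that limit was not taken for these fits. DESeq2 gave an adjusted p under 0.1 for Zmat3 in plus-dox against no-dox (0.047 without and 0.052 with moderated fold changes). In off-dox against no-dox it did so for Apaf1, Phlda3, Plk3 and Zmat3. With limma-voom the counts in these pairs were 2 and 6 genes. The share of all genes at that p limit was not taken for these tools, which also called more genes in all. In off-dox against no-dox they called 615 and 396 (DESeq2 without and with moderated fold changes) and 641 (limma-voom), against 235 with edgeR. In plus-dox against no-dox the counts were 128, 90 and 112, against 0. For Zmat3 the log2 fold changes without plus-dox tumor 2 and off-dox tumor 4 were 0.41 in plus-dox and 0.35 in off-dox against no-dox.

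Perp, an effector of p53-dependent apoptosis that is also a protein of desmosomes, had a fold change of the opposite sign (chromosome 10, 18564877 to 18576878). Its levels were 65.8, 72.1, 73.1 and 69.95 RPKM in no-dox, 48.1, 57.6, 43.9 and 38.9 in plus-dox and 66.4, 47.9, 31.1 and 49.0 in off-dox tumors. All plus-dox tumors were below the no-dox tumors, and off-dox tumor 1 alone of its group reached them. Perp was at a log2 fold change of −0.57 (SE 0.20, adjusted p = 0.33 by edgeR, exact permutation p = 0.029) in plus-dox and −0.50 (SE 0.20, adjusted p = 0.18 by edgeR) in off-dox against no-dox. Of the 12 epithelial markers 10 were also below 0 in plus-dox against no-dox, with 0 called, and 11 of 12 in off-dox. With those markers as a covariate Perp was at −0.60 in plus-dox against no-dox (adjusted p = 0.34 by edgeR). The summed markers separated no-dox from plus-dox tumors, but the covariate was the mean log2 CPM of the 12 markers, where each counts alike. Whether it can tell cell content from group was not tested. Without plus-dox tumor 2 and off-dox tumor 4 Perp was at −0.69.

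Phlda3, a repressor of Akt signalling, was the one gene below the no-dox tumors in both groups (chromosome 1, 137662662 to 137665711). It had 77.3, 66.4, 67.3 and 66.1 RPKM in no-dox, 65.1, 57.6, 55.5 and 56.5 in plus-dox and 63.9, 44.3, 48.4 and 57.4 in off-dox tumors. The gap between plus-dox tumor 1 and the lowest no-dox tumor was about 1 RPKM. The log2 fold changes were −0.23 (SE 0.11, adjusted p = 0.40 by edgeR) and −0.34 (SE 0.11, adjusted p = 0.14 by edgeR), with an exact permutation p of 0.029 for both.

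Direct effectors of mitochondrial apoptosis had overlapping groups. Bax, the pore-forming protein of the outer mitochondrial membrane, had 64.1, 67.7, 72.4 and 56.7 RPKM in no-dox, 70.4, 78.1, 55.8 and 55.9 in plus-dox and 65.7, 49.6, 65.9 and 62.2 in off-dox tumors. The groups overlapped fully, with a log2 fold change of 0.0057 (95% interval −0.29 to 0.30) in plus-dox against no-dox. Bbc3, which encodes Puma, had means of 3.58 ± 0.32, 3.68 ± 0.77 and 3.80 ± 0.59 RPKM in the 3 groups, and Pmaip1, which encodes Noxa, had 12.1 ± 2.30, 12.6 ± 3.45 and 15.2 ± 4.47 (SD, n = 4 each). These are BH3-only genes, which activate Bax, and their groups overlapped in every pair. Apaf1, the scaffold of the apoptosome, had 6.68 ± 0.90, 7.92 ± 0.67 and 8.43 ± 0.79 RPKM, with log2 fold changes of 0.26 (adjusted p = 0.36 by edgeR) and 0.37 (adjusted p = 0.13 by edgeR) against no-dox. Trp53inp1, a stress protein that promotes p53 activity, had 11.5, 9.66, 9.78 and 11.8 RPKM in no-dox, 12.7, 8.00, 9.89 and 12.7 in plus-dox and 12.0, 13.3, 11.6 and 11.6 in off-dox tumors. Off-dox tumor 2 was the highest of all and plus-dox tumor 2 the lowest. Aen, an apoptosis-enhancing nuclease, spanned 10.4 to 16.6 RPKM with group means of 12.8, 13.6 and 12.7.

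The death receptors had low or moderate levels and overlapping groups. Fas, the receptor for Fas ligand, had 5.89, 3.83, 3.21 and 3.21 RPKM in no-dox, 4.16, 2.58, 2.73 and 4.60 in plus-dox and 3.37, 3.53, 3.23 and 1.65 in off-dox tumors. Tnfrsf10b, the TRAIL receptor, stood at 7.33, 10.3, 9.98 and 10.1 in no-dox, 8.42, 12.2, 10.5 and 8.52 in plus-dox and 9.02, 10.6, 7.66 and 14.5 in off-dox tumors. Off-dox tumor 4 was the lowest of all tumors for Fas and the highest for Tnfrsf10b. Against no-dox the log2 fold changes were −0.19 and −0.43 for Fas and 0.084 and 0.18 for Tnfrsf10b in plus-dox and off-dox tumors. Eda2r, a receptor for ectodysplasin A2, had 1.76, 1.37, 2.20 and 1.29 in no-dox, 1.97, 1.66, 1.24 and 1.80 in plus-dox and 1.88, 1.65, 2.37 and 2.75 in off-dox tumors. Its log2 fold change in off-dox against plus-dox was 0.41 (95% interval −0.07 to 0.89, adjusted p = 1 by edgeR), which was the smallest unadjusted p of the 33 genes in that pair, and the value was 0.25 without off-dox tumor 4.

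Metabolism and stress genes had fold changes of both signs. Gls2, the p53-induced glutaminase, had 2.24, 2.26, 2.34 and 1.61 RPKM in no-dox, 1.88, 0.94, 1.58 and 1.35 in plus-dox and 1.96, 1.57, 1.43 and 2.28 in off-dox tumors. No-dox tumors 1, 2 and 3 were above all plus-dox tumors and no-dox tumor 4 was among them, with a log2 fold change of −0.54 (SE 0.24, adjusted p = 0.36 by edgeR). Dcxr, a dicarbonyl and xylulose reductase, had 16.9, 20.3, 14.04 and 17.04 in no-dox, 17.997, 10.7, 12.2 and 14.01 in plus-dox and 17.4, 10.4, 11.2 and 9.37 in off-dox tumors. Off-dox tumor 1 lay inside the no-dox range while the other 3 off-dox tumors were below it. In off-dox against no-dox its log2 fold change was −0.47 (SE 0.20, adjusted p = 0.21 by edgeR). Without off-dox tumor 1 both Dcxr and Perp were called in that pair, Dcxr at −0.68 (adjusted p = 0.053 by edgeR). In that fit 789 of all genes tested were called in the same pair.

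Steap3, an endosomal iron reductase, had 12.0, 8.84, 12.5 and 7.59 RPKM in no-dox, 8.59, 16.7, 10.4 and 12.1 in plus-dox and 8.08, 8.51, 10.4 and 9.28 in off-dox tumors, with plus-dox tumor 2 highest. Its log2 fold change in off-dox against plus-dox was −0.38 (95% interval −0.84 to 0.08), and −0.17 without plus-dox tumor 2. The sestrins, which restrain mTORC1 under stress, had group means of 10.4, 11.4 and 12.2 RPKM for Sesn1 and 3.63, 3.96 and 4.15 for Sesn2 in no-dox, plus-dox and off-dox tumors. Fdxr, the mitochondrial ferredoxin reductase, had 4.69, 4.70 and 4.02. For these 3 genes the groups overlapped in every pair.

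The other 3 targets were Trp53i11, Trp53i13 and Epha2. Trp53i11 had 11.3, 10.7, 16.2 and 13.8 RPKM in no-dox, 11.1, 27.6, 25.6 and 13.7 in plus-dox and 18.5, 14.7, 19.8 and 12.7 in off-dox tumors. Plus-dox tumors 2 and 3 were far above the other plus-dox tumors, which lay in the no-dox range. The log2 fold change in plus-dox against no-dox was 0.61 (SE 0.29, adjusted p = 0.38 by edgeR), the highest of the 33 genes in this fit. It was 0.39 without the tumors that stood apart and 0.40 with limma-voom, both below Zmat3 at 0.41 and 0.45, and 0.44 with moderated DESeq2, below Plk3. Epha2, an ephrin receptor kinase, had 27.4, 34.1, 41.0 and 33.7 in no-dox, 32.2, 57.2, 37.7 and 29.7 in plus-dox and 30.9, 40.9, 30.04 and 57.2 in off-dox tumors. Its high values were those of plus-dox tumor 2 and off-dox tumor 4. Trp53i13 had 8.51 ± 0.16, 8.30 ± 1.52 and 7.96 ± 0.48 RPKM (SD, n = 4 each).

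Plus-dox tumor 2 and off-dox tumor 4, the tumors that stood apart in the whole profile, were also extreme for many target genes. In plus-dox tumor 2, 21 of the 33 genes lay outside the range of the other 10 tumors, 11 above and 10 below, which is 63.6% beside 40.9% of 14548 genes with a mean over 0.25 RPKM. Off-dox tumor 4 had 15 outside, 8 above and 7 below, or 45.5% beside 36.1%. Both tumors were outside on the same side for 11 genes, or 33.3% beside 24.9%. Those above in both were Polk, Aen, Zmat3, Tnfrsf10b and Epha2, and those below in both were Btg2, Plk2, Gadd45a, Xpc, Ddb2 and Fas. Of those below, Btg2, Plk2 and Gadd45a belong to growth control and Xpc and Ddb2 to excision repair. Cdkn1a, Plk3, Bax, Steap3, Trp53i11 and Trp53i13 were above the range in plus-dox tumor 2 alone. Epcam, a surface marker of epithelial cells, was at 7.76 RPKM in plus-dox tumor 2 and 40.9 in off-dox tumor 4, against 72.3 to 388 in the other 10, while Krt8 was at 532 and 525. Fibroblast markers summed to 2992 RPKM in plus-dox tumor 2 and 1489 in off-dox tumor 4, against 1071 to 2180 in the others. Endothelial markers summed to 134 and 58.3 RPKM, against 31.5 to 55.1. T and NK cell markers, near the floor, summed to 3.67 and 4.02, against 0.787 to 2.99. Both tumors were thus above the other 10 for both sums. In off-dox tumor 4 Cdh5 was at 16.4 RPKM, against at most 11.8 in the other 10, and Kdr and Tie1 were also above them. Pecam1, Tek, Emcn and Esam lay within the range of the other 10 in that tumor. The part of cell composition in these deviations was not tested.

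**Figure D4:**
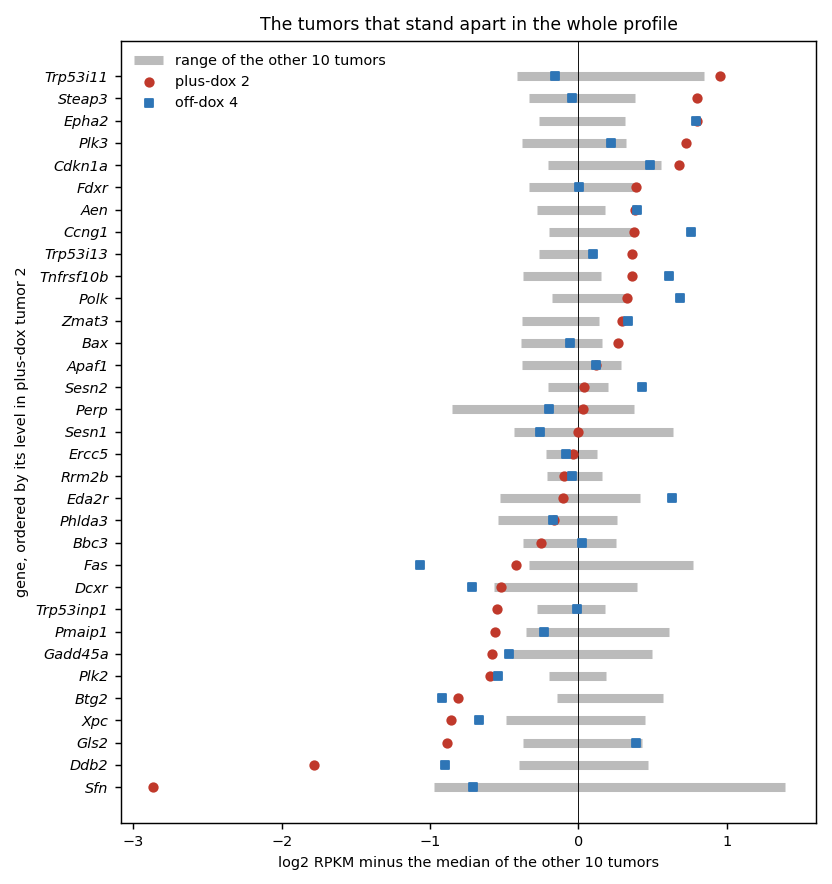
Each row is a target gene, the grey bar its range over 10 tumors, the red circle plus-dox tumor 2 and the blue square off-dox tumor 4, as log2 RPKM minus the median of those 10. For Btg2, Plk2, Xpc, Ddb2, Fas and Gadd45a both marks lie left of the bar, and for Epha2, Tnfrsf10b, Polk, Aen and Zmat3 both lie right of it.

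The spread of the 33 genes was set beside that of other genes. The SD of log2 CPM within groups had a median of 0.28 over the target genes, 0.25 over the 14548 expressed genes and 0.21 over the 10643 genes in the same range of mean RPKM. Sfn, Ddb2 and Trp53i11 had the largest within-group SDs, of 0.89, 0.62 and 0.47, and Ercc5, Rrm2b and Zmat3 the smallest, of 0.093, 0.12 and 0.14.

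Regulators of p53 were read from a list of 9 genes, of which 8 passed the count filter and Trp73 did not. Trp53 itself had 48.2, 57.4, 40.1 and 45.2 RPKM in no-dox, 49.8, 56.0, 40.4 and 47.9 in plus-dox and 44.2, 41.6, 45.4 and 44.9 in off-dox tumors. The groups overlapped, with a log2 fold change of 0.036 (95% interval −0.20 to 0.28) in plus-dox against no-dox, which leaves out a change of 1.5-fold, and a rise with dox was not visible in these counts. Reads of the p53R270H transgene and of the native gene were summed in these counts and cannot be told apart. By immunostaining, the study found no dsRed in no-dox tumors of KCip53 cells and heterogeneous dsRed in plus-dox tumors. It also reported p53 protein changes with dox in the cultured lines by Western blot. Those are measures of protein and not of whole-tumor RNA. Mdm2, a target of p53 that encodes its main ubiquitin ligase, had 27.2 ± 5.58, 26.1 ± 4.42 and 27.3 ± 5.99 RPKM in no-dox, plus-dox and off-dox tumors (SD, n = 4 each), with log2 fold changes of −0.051 and 0.036 against no-dox.

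Mdm4, the inhibitor of p53 related to Mdm2, was the one regulator called, 1 of 8 in off-dox against no-dox (background 1.34%). It stood at 12.1, 8.72, 9.81 and 9.60 RPKM in no-dox, 12.5, 11.3, 13.4 and 16.6 in plus-dox and 13.5, 17.7, 18.3 and 12.7 in off-dox tumors. All off-dox tumors were above the no-dox tumors, while plus-dox tumor 2 lay within their range. Mdm4 rose in off-dox against no-dox tumors by 0.66 on the log2 scale (SE 0.15, adjusted p = 0.084 by edgeR), a call that was lost when no-dox tumor 1, 2 or 4 was left out, and likewise off-dox tumor 2, 3 or 4 and plus-dox tumor 4, since 0 genes were then called, and the value in plus-dox was 0.43 (adjusted p = 0.33 by edgeR). Cdkn2a, which encodes p16 and the p53 activator Arf, was the lowest of the list at −0.41 and −0.54 (adjusted p = 0.36 and 0.14 by edgeR).

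A second list of 11 further p53 targets had 0 genes called in any pair (background 0%, 1.34% and 0%). Ei24, a membrane protein gene induced in p53-dependent cell death, was chosen after its values were seen, as the gene with the smallest adjusted p of the list. It had 43.5, 34.5, 40.3 and 41.7 RPKM in no-dox, 34.7, 27.5, 26.9 and 31.6 in plus-dox and 31.0, 30.2, 30.7 and 29.7 in off-dox tumors. All off-dox tumors were below the no-dox tumors, and plus-dox tumor 1 alone of its group reached them. Its log2 fold changes were −0.40 (adjusted p = 0.32 by edgeR) and −0.37 (adjusted p = 0.093 by edgeR), the latter under the limit of 1.5-fold. Thbs1, which encodes the matrix protein thrombospondin 1, had 58.7, 52.9, 56.9 and 64.9 RPKM in no-dox, 74.7, 63.3, 98.3 and 65.7 in plus-dox and 66.9, 68.5, 46.1 and 64.1 in off-dox tumors. Plus-dox tumors 1, 3 and 4 were above the no-dox range, and the log2 fold changes were 0.39 (adjusted p = 0.37 by edgeR) and 0.10 (adjusted p = 0.77 by edgeR). Dram1, an autophagy gene, gave the low extreme of the list at −0.79 (adjusted p = 0.43 by edgeR) and −1.30 (adjusted p = 0.15 by edgeR). Lrdd, which encodes the death domain protein Pidd, was the high extreme in off-dox against no-dox at 0.45 (adjusted p = 0.26 by edgeR). Median log2 fold changes of this list were 0.036, 0.10 and 0.035 in the 3 pairs.

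Cell cycle genes that p53 represses through p21 formed a list of 17, of which 0 were called in any pair (background 0%, 1.34% and 0%). Their median log2 fold change was −0.082 in plus-dox and −0.26 in off-dox against no-dox, and −0.20 in off-dox against plus-dox, where the medians over all genes tested were 0.013, 0.0072 and −0.00051. Cdc20, an activator of the anaphase-promoting complex, was the lowest at −0.45 and −0.69 (adjusted p = 0.40 and 0.14 by edgeR), while E2f1, a transcription factor of S phase genes, was the highest in plus-dox against no-dox at 0.50 (adjusted p = 0.46 by edgeR) and Foxm1, one of G2 genes, was the highest in off-dox against no-dox at 0.40 (adjusted p = 0.36 by edgeR). In off-dox against plus-dox 15 of the 17 were below 0, where 49.8% of all genes were above 0, with all 17 intervals including 0. Several of these genes shared their lowest tumor, so the 17 signs are not independent. Cdk1, Ccnb1, Ccnb2, Ccna2, Cdc20, Plk1 and Aurkb were lowest in plus-dox tumor 3, while Bub1 and Foxm1 were lowest in no-dox tumor 4.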

How the data were processed

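RNA of 12 tumors was sequenced by the study. One further allele of the line is not reported here. Per the labels and the study's methods, reads from unstranded poly(A) libraries were mapped to mm9 with TopHat 1.4.1 and Bowtie 0.12.8 after CASAVA 1.8.2, and bedtools 2.16.2 was among the tools. The authors condensed RefSeq isoforms to 1 unstranded model per gene and deposited expected counts from base-wise coverage of unambiguous exonic spans, of which 58.2% differ from a whole number by more than 0.01. The authors also deposited RPKM values, scaled to summed exon length and to mapped reads. Without strand, reads of overlapping or antisense genes cannot be told apart, and copies of a gene with near-identical sequence are uncertain.

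Counts were rounded and fitted with edgeR 4.0.16 (R 4.3.3), with TMM factors, a minimum of 10 counts over the 12 tumors together and 1 fit of 3 groups, and p-values were adjusted by Benjamini-Hochberg over 17561 genes. A call needed an adjusted p under 0.1, over 1.5-fold, a mean over 0.25 RPKM and over 250 bp, the limits of the study, which used DESeq2. Log2 CPM values have a prior count of 2. Single genes were compared by two-sided exact permutation tests of mean log2 CPM. Groups were taken as not overlapping on RPKM. p-values count each tumor as independent, but as mice bore 2 tumors, some may come from the same host and p would then be too small. Alternatives used DESeq2 1.42.0, limma 3.58.1 (voom), other filters and scalings, an epithelial covariate and fits without single tumors.

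The 33 genes, their roles and all lists were chosen with earlier results of these data known. Values by tumor are given for Cdkn1a, for the gene of highest mean and of smallest p in each role, and for genes whose groups do not overlap. Of pathway genes, Trp53, Mdm2 and Thbs1 are given in any case and others where they were called or gave the extreme of their list. The looser p53 site pattern was set after the stricter one had given 2 target genes. Sites were read from the mouse genome NCBIM37, which is mm9, with GENCODE vM1 models, and 99.8% of 21416 genes matched by symbol lay at overlapping positions. Python 3.11.15 was used with numpy, scipy, pandas and matplotlib.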

Additional observations from a re-analysis of the deposited data

Results flagged for a closer look

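In 6 of 99 groups of 4 tumors, 1 tumor was farther from the other 3 than Dixon's limit of 0.829 allows, where chance gives about 1 in 20. Sfn was at 28.8 RPKM in no-dox tumor 2 and at 10.3 to 12.1 in the other no-dox tumors, Phlda3 was at 77.3 in no-dox tumor 1 against 66.1 to 67.3, Tnfrsf10b was at 7.33 in no-dox tumor 1 against 9.98 to 10.3, and Gls2 was at 1.61 in no-dox tumor 4 against 2.24 to 2.34. In off-dox tumor 4, Ddb2 was at 3.90 RPKM against 6.84 to 7.34 and Fas at 1.65 against 3.23 to 3.53. Off-dox tumor 4 is one of the tumors that stood apart in the whole profile.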

How the results depend on the processing

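Of 691 values under alternatives, 680 kept their side of the limits and, for the single genes tested in detail, their sign, or, for medians over the target genes, moved by less than 0.050. The median in plus-dox against no-dox crossed 0, to −0.012 with the epithelial covariate, −0.025 without the tumors that stood apart, −0.0049 without no-dox tumor 1 and −0.020 without plus-dox tumor 2. So did the median in off-dox against no-dox, to −0.0031 with limma-voom, −0.012 without the tumors that stood apart, −0.015 without no-dox tumor 2 and −0.016 without off-dox tumor 4. With limma-voom and tumor quality weights, 1 target gene was called in plus-dox against no-dox, Perp at −0.68 (adjusted p = 0.094), beside 112 of all genes. Leaving out each tumor gave 0 to 2 target genes in off-dox against no-dox. The 2 (Dcxr and Perp) came without off-dox tumor 1, where 789 of all genes were called. Fold changes near 0 changed sign under at least 1 alternative for 15 target genes in plus-dox against no-dox, 6 in off-dox against no-dox and 16 in off-dox against plus-dox, with values of at most 0.25 in size. Among those tested in detail these were Fas in plus-dox against no-dox without no-dox tumor 1 (0.023, with −0.33 the other end when a tumor was left out), Trp53i11 in off-dox against plus-dox with limma-voom (0.077) and without the tumors that stood apart (0.063), and Cdkn1a in off-dox against plus-dox without plus-dox tumor 1 (−0.11), plus-dox tumor 4 (−0.088), off-dox tumor 1 (−0.0077) and off-dox tumor 4 (−0.052), the other end being 0.17. DESeq2 called 0 target genes.

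The background over all genes in off-dox against no-dox moved far more. From 235 genes it went to 615 and 396 with DESeq2 without and with moderated fold changes, 641 with limma-voom, 122 with no filter on counts, 365 with at least 10 counts in every tumor, 3 in the 8 tumors alone and 471 without the tumors that stood apart, and it was 0 at an adjusted p under 0.05. Without single tumors it was 789 (off-dox tumor 1 left out), 19 (plus-dox tumor 3), 1 (no-dox tumor 3) and 0 for each of off-dox tumors 2, 3 and 4, no-dox tumors 1, 2 and 4 and plus-dox tumor 4. In plus-dox against no-dox DESeq2 called 128 and 90 genes and limma-voom 112, and leaving out plus-dox tumor 1 gave 3. In off-dox against plus-dox DESeq2 called 6 and 4, and leaving out off-dox tumor 1 gave 1. The cause was not tested.

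Pairing by equal tumor number was not seen as a rule, as 2 of 12 same-number correlations were over 0.1 (range −0.45 to 0.57, mean −0.088). These correlations were taken between groups and cannot show tumors of the same group that shared a mouse. With the replicate number as a block, 0 target genes were called in the 3 pairs, and the count over all genes was 0. Exact tests with a tumor left out were not run. With 4 tumors per group a log2 standard error was 0.094 to 0.52 over the target genes in plus-dox against no-dox, which limits what could be seen for genes such as Sfn.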
